A study of Mus musculus with 12 samples.

Results

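Embryoid bodies exposed to the agent labelled NP were compared with embryoid bodies exposed to the agent labelled BPA, both at day 8 of differentiation. The comparison takes the 3 arrays titled NP day8 and the 3 arrays titled BPA day8, which are 6 of the 12 arrays in the series. The cells were D3, an established line of mouse embryonic stem (ES) cells. They had been grown on feeder fibroblasts from mouse embryos, which had been treated with MMC, and were then differentiated as embryoid bodies. The NP day8 and BPA day8 groups are labelled as differentiated D3 cells with 1 agent each. The other groups had no agent and are control day0 and control day8, with 3 arrays each. The labels give no dose for either agent, do not spell out their names, and do not say whether the 3 arrays of a group came from separate cultures. The p-values therefore measure only the spread between these samples, and the difference between the agents holds for the unstated doses alone.

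Embryoid bodies are aggregates in which pluripotent cells leave the stem cell state and form derivatives of the germ layers, with an outer layer of primitive endoderm that makes yolk sac proteins. Cells under endoplasmic reticulum stress or short of amino acids raise the translation of the factor ATF4, which switches on genes for amino acid synthesis and transport. Cells short of sterol release the factor SREBP2, made by Srebf2, which switches on the enzymes that build cholesterol from acetyl-CoA.

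RNA was measured on Affymetrix arrays, on which each gene is read by 1 or more sets of short probes. Values are log2 signals, so that a difference of 1 is a 2-fold difference, and a gene is represented by the probe set with the highest mean over the 12 arrays. After the filter on low signals 13067 genes were tested. The error given with a difference is the standard error from a limma model over 12 arrays, and intervals are 95% intervals from that model. The background level is the highest value of a bacterial control probe set on any array, a log2 signal of 3.41. Between 59.2% and 61.8% of probe sets lay above it on the 3 NP arrays and between 59.9% and 61.5% on the 3 BPA arrays. The ratio of 3′ to 5′ actin probe signal, a sign of RNA quality, ran from 2.75 to 3.11 with NP, from 2.86 to 3.29 with BPA and from 2.41 to 2.67 in control day8. NP replicate 1 stood apart from the other NP arrays in heart muscle genes. The light chain gene Myl7 read 9.05 on it and 4.96 and 6.35 on the others, so several values are also given without this array.

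Few genes separated the agents. With NP, 1 of the 13067 genes was higher at a Benjamini-Hochberg adjusted p under 0.05 (0.00765% of genes), and it was Tgfb3, the ligand TGF-beta 3. No gene was lower at this threshold (0% of genes). At an unadjusted p under 0.05 limma found 1095 genes (8.38%), of which 503 (3.85%) were higher and 592 (4.53%) lower with NP. Centring each array on its median turned this split to 616 higher and 477 lower. The 3 NP arrays did not overlap the 3 BPA arrays for 2215 genes (17.0%), with 942 higher (7.21%) and 1273 lower (9.74%). Across genes, correlations between a BPA array and an NP array ran from 0.935 to 0.951. Those between BPA arrays ran from 0.944 to 0.95, and those between NP arrays from 0.941 to 0.951. An array of either agent was thus about as close to the arrays of the other agent as to its own. Against control day8, whose arrays both comparisons share, limma called 2906 genes with BPA (22.2%) and 1852 with NP (14.2%). A p that misses the threshold does not show that the agents act alike, and the intervals give the bound. For 8954 genes, 68.5% of those tested, the whole interval of the difference lay within 2-fold, and for 43.5% it lay within 1.5-fold. Among the 10856 genes above background on all 6 arrays, the interval lay within 2-fold for 81.9%. A difference of at least 2-fold was estimated for 659 genes, but 610 of them were not above background on all 6 arrays.

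**Figure D1:**
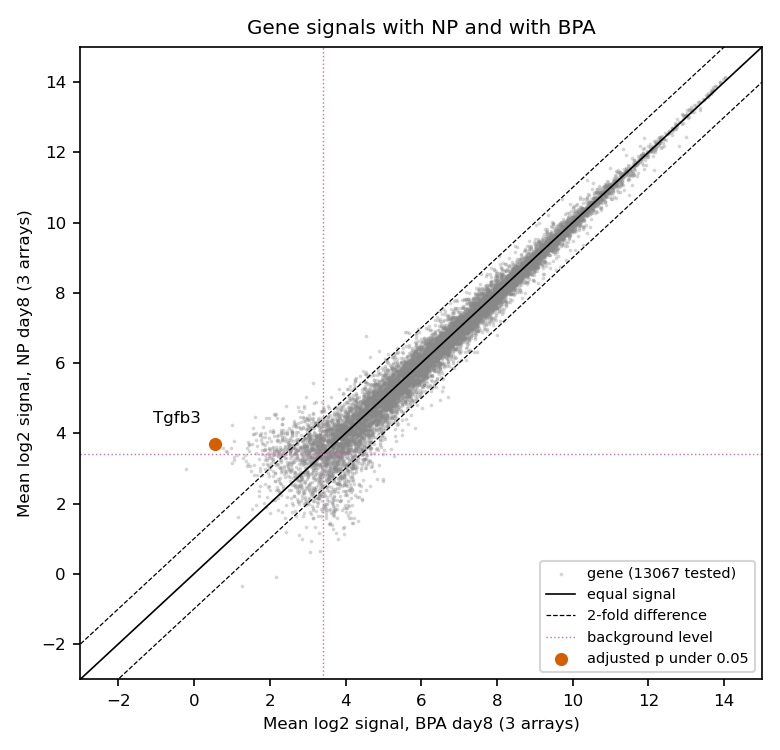
Mean log2 signal of each of the 13067 genes with BPA (horizontal) and with NP (vertical), 3 arrays each; the solid line marks equal signal, dashed lines a 2-fold difference and dotted lines the background level of 3.41. Wide scatter lies near and below the background level, and the marked gene is Tgfb3.

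Tgfb3 read 0.54, -0.13 and 1.27 on the BPA arrays and 3.62, 3.89 and 3.6 on the NP arrays. Control day8 read 3.57, 3.66 and 4.10. The BPA arrays were all under the background level, while the NP and control arrays were all just above it. The fitted difference was 3.14 ± 0.33 (adjusted p = 0.0425). With the BPA arrays below background the group means give only a bound, with NP at least 1.23-fold higher. Against control day8, whose arrays both comparisons share, Tgfb3 fell with BPA (adjusted p = 0.00039) and differed by -0.07 ± 0.33 with NP (adjusted p = 0.915). By the means the fall with BPA was at least 1.29-fold, with the BPA arrays set to the background level. Both bounds are point estimates that leave out the spread between arrays. The call was lost when values under background were set to the background level (adjusted p = 0.682), when only the 6 compared arrays were fitted (0.41), and on leaving out any 1 of 9 of the 12 arrays. It was kept without BPA replicate 2, BPA replicate 3 or control day0 replicate 2, and over single left-out arrays its adjusted p ran from 0.0107 to 0.188. Fbln5, which encodes the elastic fibre protein fibulin 5, came next, and all 6 arrays lay under background, so no fold is given. Its values were 0.65, -0.33 and -0.96 with BPA and 2.52, 3.36 and 3.03 with NP (adjusted p = 0.0746).

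St8sia1, the sialyltransferase that makes the ganglioside GD3, was the third and lay well above background. It read 6.5, 6.31 and 6.32 with BPA, 5.41, 5.31 and 5.25 with NP, and 5.14 on average in control day8. The lowest BPA array was above the highest NP array, and NP was lower by a log2 difference of -1.05 ± 0.13 (interval -1.35 to -0.75, adjusted p = 0.0746). Against control day8 St8sia1 rose with BPA (1.24 ± 0.13, adjusted p = 0.000492), while the difference with NP was 0.18 ± 0.13 (adjusted p = 0.41). From the next gene on the adjusted p was 0.277.

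The 20 genes with the smallest p held 10 higher and 10 lower with NP, and 15 of them were above background on all 6 arrays. Their groups did not overlap, which the choice by p favours. Of the 20 genes, Srebf2, Fads3, Pde7b, Slc5a2, Cpt1c and Zfp777 had means closer to control day8 with BPA. All the others were closer to it with NP. Irs4, an adaptor of insulin receptor signalling, read 4.83, 4.82 and 3.99 with BPA and 7.67, 6.15 and 6.46 with NP. NP replicate 1 was the highest of these arrays, and the difference was 2.21 ± 0.42 (1.76 without that array, the lowest value over the arrays left out). Control day8 averaged 7.42 for Irs4, and against it the gene fell with BPA (-2.87 ± 0.42, adjusted p = 0.0018) and differed by -0.66 ± 0.42 with NP (adjusted p = 0.34). Crabp1, which binds retinoic acid in the cytoplasm, read 7.83, 7.86 and 7.74 with BPA and 8.67, 8.31 and 8.65 with NP. Its mean of 9.23 in control day8 was above both, and it fell with both agents (-1.42 ± 0.14 with BPA and -0.69 ± 0.14 with NP, adjusted p = 0.000349 and 0.0125). Timp3, an inhibitor of matrix metalloproteases, read 6.11, 6.23 and 6.38 with BPA and 6.94, 6.83 and 7.03 with NP, a difference of 0.70 ± 0.13. The remaining genes higher with NP were Tbc1d12, Evi5, Dhx36, Sesn2 and Herpud1, with differences between 0.64 and 0.89.

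Khdc3, a gene of the oocyte and of naive ES cells, had one of the widest gaps among the genes lower with NP and above background. It read 8.02, 8.01 and 7.96 with BPA and 6.67, 7.18 and 6.53 with NP, a difference of -1.20 ± 0.23. Control day8 averaged 5.24, and Khdc3 rose over it with both agents (2.76 ± 0.23 with BPA, adjusted p = 0.000229, and 1.55 ± 0.23 with NP, adjusted p = 0.00304). Pltp, the phospholipid transfer protein of lipoproteins, read 9.09, 9.23 and 9.34 with BPA and 8.57, 8.59 and 8.48 with NP. Dcxr, a reductase of sugars and dicarbonyls, read 8.02, 8.26 and 8.22 with BPA and 7.45, 7.57 and 7.30 with NP. Both were higher with BPA on each array, and against control day8 both rose with BPA (0.75 ± 0.12 for Pltp and 1.10 ± 0.14 for Dcxr, adjusted p = 0.00263 and 0.000927). The corresponding values with NP were 0.07 ± 0.12 and 0.38 ± 0.14 (adjusted p = 0.742 and 0.107). Cpt1c and Zfp777 differed by -0.74 each. Fads3, Pde7b and Slc5a2 had larger estimates, but each lay under background on at least 2 NP arrays. Where a gene had further probe sets past the filter, their sign was the same for St8sia1, Fads3, Pltp and Herpud1 and not for every set of Srebf2, Sesn2, Timp3, Evi5 and Dhx36. With log2(signal + 64), which damps low signals, 39 genes passed the adjusted threshold, 17 higher and 22 lower with NP, of which 13 were among these 20. All of the 39 were above background on all 6 arrays, and 1 differed by 2-fold on that scale.

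**Figure D2:**
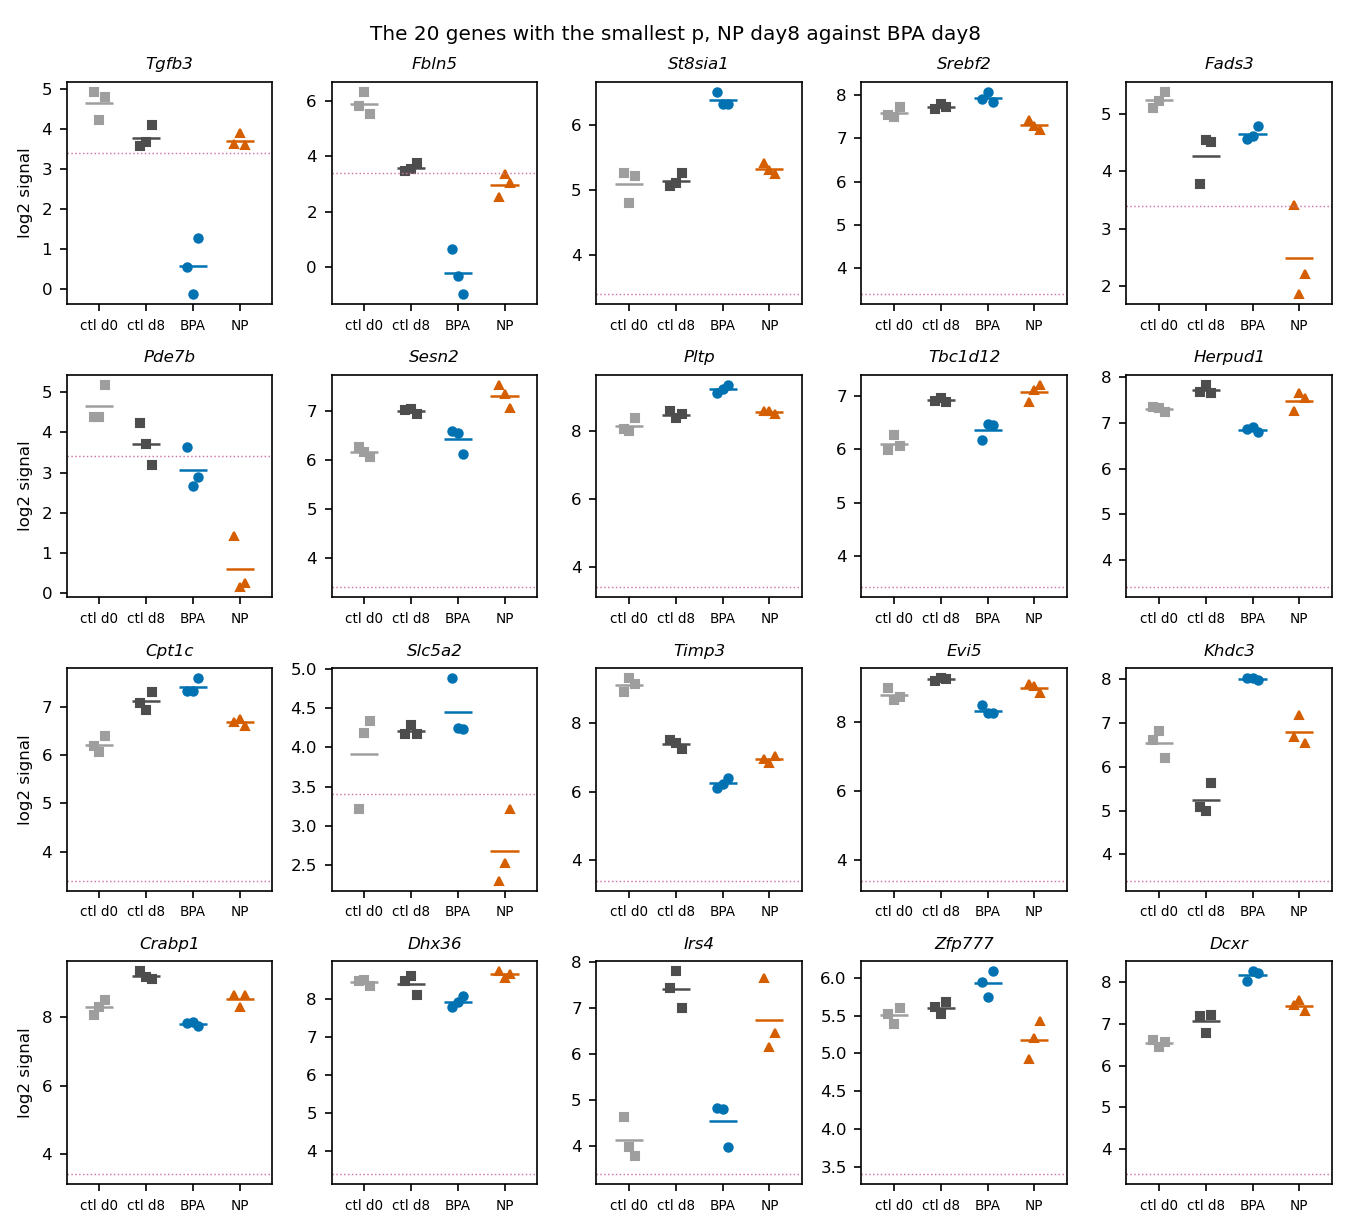
Log2 signal on every array of the 20 genes with the smallest p for NP day8 against BPA day8, with grey squares for control day0 (ctl d0), dark squares for control day8 (ctl d8), circles for BPA and triangles for NP, bars for group means and a dotted line for the background level. The vertical scale differs between panels, and in each of the 20 the BPA and NP arrays do not overlap.

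Among markers of the stem cell state, the core factors overlapped between the agents while some others did not. The pluripotency factor Pou5f1 read 10.54, 10.59 and 10.55 with BPA and 9.94, 10.52 and 10.97 with NP. Sox2 read 11.09, 11.09 and 11.26 with BPA and 10.89, 11.07 and 11.38 with NP. Nanog read 10.20, 10.59 and 10.43 with BPA and 10.16, 10.50 and 10.25 with NP. The arrays of the agents overlapped for these 3 factors, and the differences were -0.08 (interval -0.93 to 0.76), -0.04 (-0.36 to 0.29) and -0.11 (-0.73 to 0.52). Sox2 was therefore bounded within 2-fold, as were Pou5f1 and Nanog. Zfp42, another ES cell marker, read 10.75, 10.87 and 10.99 with BPA and 10.19, 10.60 and 10.69 with NP. Its NP arrays were all lower, at a difference of -0.38 (interval -0.88 to 0.12), while Esrrb overlapped at -0.26 (interval -0.71 to 0.19). Against the shared control day8 arrays Pou5f1 was higher by 2.92 ± 0.38 with BPA and 2.83 ± 0.38 with NP (adjusted p = 0.000998 and 0.00196). Of the 34 genes on the pluripotency list 31 passed the filter, 22 of them with a lower mean with NP, at a median difference of -0.08 against -0.02 over all genes tested. That median was 0.01 without NP replicate 1, and -0.14 and -0.15 without NP replicates 2 and 3. The arrays did not overlap for 9 of the 31, 3 higher and 6 lower with NP, against 7.21% and 9.74% of all genes. Limma found 3 of them higher and 1 lower at an unadjusted p under 0.05, against 3.85% and 4.53% of all genes, and 1 each way without NP replicate 3. The higher ones were Lin28a, an RNA-binding protein that blocks let-7 processing, Lefty1, an inhibitor of Nodal, and the homeobox gene Gbx2. Their differences were 0.43 ± 0.13, 0.62 ± 0.27 and 0.94 ± 0.36 (adjusted p = 0.442, 0.587 and 0.525). The lower one, Tfcp2l1, a factor of naive ES cells, read 8.04, 7.74 and 7.93 with BPA and 7.44, 7.60 and 7.52 with NP.

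Among the 37 markers of cell types tested, 0 passed the adjusted threshold in limma and 3 had an unadjusted p under 0.05, a share close to the 8.38% of all genes. The 3 were the neural genes Pax6 and Nes, both higher with NP, and Tfap2c, a factor of trophoblast and germ cells, lower with NP. The arrays of the agents did not overlap for 14 of the 37 markers, against 17.0% of all genes. The smallest adjusted p was 0.436 and the interval lay within 2-fold for 7 of the 37. In bulk RNA fewer cells of a type and less RNA per cell cannot be told apart. All 6 visceral endoderm markers were above background on all arrays of both groups, and their mean level ran from 9.31 to 9.64 with BPA and from 9.93 to 10.1 with NP. The 4 neural markers averaged between 4.54 and 5.28 with BPA and between 5.42 and 5.49 with NP, although Tubb3, a neuronal tubulin, went the other way at -0.37 (interval -1.12 to 0.38). For the 5 cardiomyocyte markers the mean ran from 5.0 to 5.99 with BPA and from 4.78 to 7.13 with NP, the highest being NP replicate 1. The 5 ES cell markers averaged 10.04 to 10.23 with BPA and 9.72 to 10.15 with NP. Of the 6 feeder and connective tissue markers 4 were above background in each group, with means of 4.15 to 4.76 and 4.17 to 4.88. The ranges of the visceral endoderm and neural markers did not overlap between the agents, while those of the ES cell, cardiomyocyte and feeder markers did. Red cell genes varied most, with Hbb-bh1 between -0.54 and 7.88 on the BPA arrays and between 1.44 and 8.01 on the NP arrays.

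**Figure D3:**
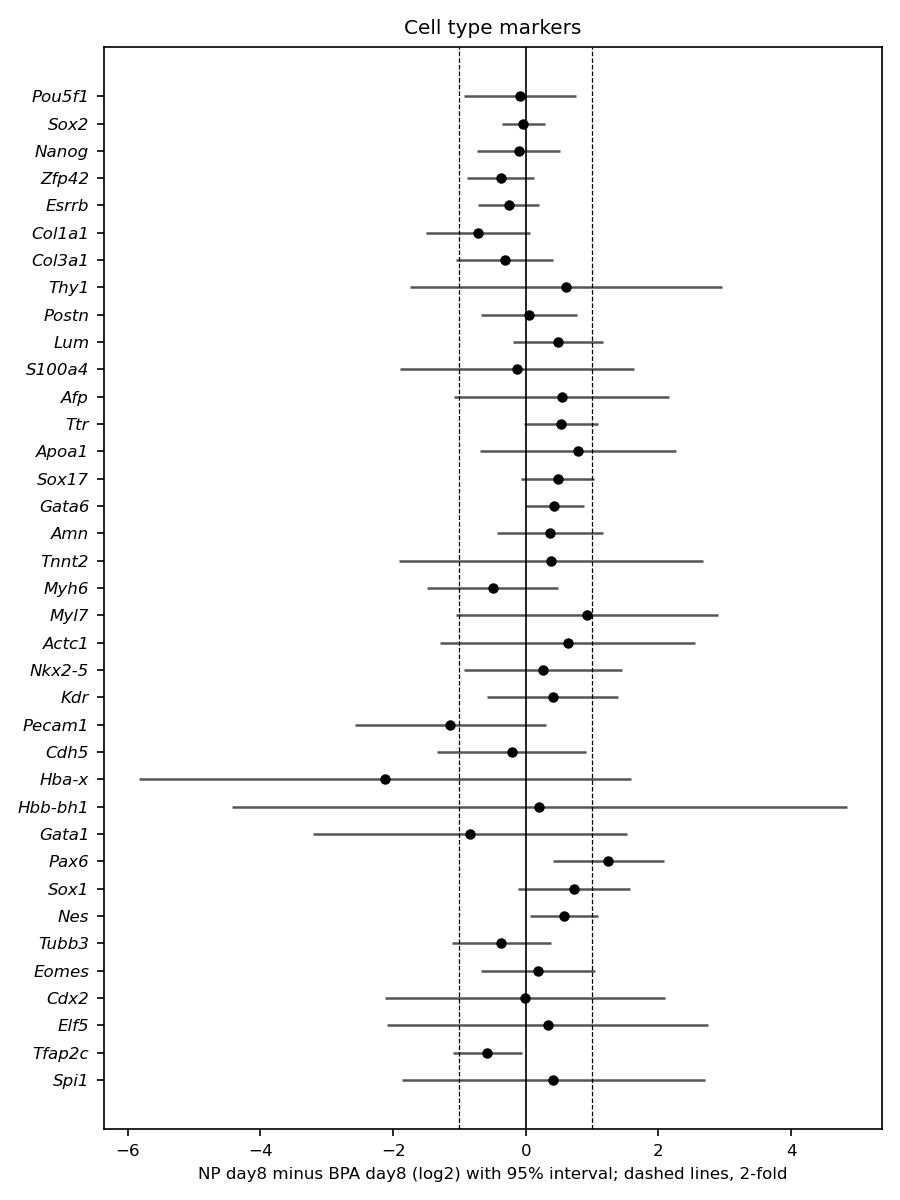
Difference NP day8 minus BPA day8 (log2, horizontal) with its 95% interval for the 37 cell type markers tested, with dashed lines at a 2-fold difference. The intervals of Pax6, Nes and Tfap2c lie to one side of 0, and those of the globin genes Hba-x and Hbb-bh1 are the widest.

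Genes of yolk sac and primitive endoderm lay a little higher with NP. Of 40 listed genes 37 passed the filter, and 36 of them had a higher mean with NP, at a median difference of 0.37 against -0.02 over all genes tested. Their arrays did not overlap for 16 genes higher and 1 gene lower with NP, against 7.21% and 9.74% of all genes. At an unadjusted p under 0.05 limma found 4 higher and 1 lower, against 3.85% and 4.53% of all genes, and 0 passed the adjusted threshold. That total of 5 became 11 without control day8 replicate 3 and 3 without BPA replicate 1. With array weights, the background floor, limma-trend, the 6 compared arrays or a pseudocount of 16 or 64, 8 to 15 were higher and 1 lower. Foxa2, a forkhead factor of endoderm, read 6.93, 6.63 and 6.74 with BPA and 7.87, 7.61 and 7.66 with NP, a difference of 0.95 ± 0.35. Apoa2, an apolipoprotein, read 7.90, 7.82 and 8.41 with BPA and 9.13, 9.10 and 8.91 with NP. The retinol carrier Rbp4 read 9.93, 10.46 and 10.75 with BPA and 11.48, 11.09 and 11.03 with NP. All 3 were higher on every NP array, with adjusted p between 0.488 and 0.525. Rhox5, a homeobox gene, went the other way, at 12.17, 12.12 and 12.18 with BPA and 11.39, 11.70 and 11.39 with NP. Visceral endoderm markers given above, among them Amn, Gata6 and Afp, are themselves on this list, so their direction is not a separate observation. Their part in the values of the list was not tested.

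Enzymes of cholesterol synthesis were the list with the largest share lower with NP among lists with at least 10 measured genes. Of 25 listed genes 20 passed the filter, and 17 had a lower mean with NP, at a median difference of -0.38. In limma 0 passed the adjusted threshold, while at an unadjusted p under 0.05 there were 9 lower and 0 higher, against 4.53% and 3.85% of all genes. The arrays did not overlap for 15 lower genes and 1 higher, against 9.74% and 7.21% of all genes. The mean over the list was 8.16, 8.18 and 8.13 on the BPA arrays, 7.71, 7.74 and 7.92 on the NP arrays and 8.18, 8.07 and 8.31 on the control day8 arrays, so that the NP arrays lay below both other groups. The count of 9 became 5 without BPA replicate 2, NP replicate 1 or NP replicate 2, and 13 lower and 1 higher without control day0 replicate 3. With array weights there were 14 lower and 1 higher, and with the most variable probe set 5 lower and 1 higher.

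Srebf2 read 7.92, 8.08 and 7.84 with BPA and 7.42, 7.29 and 7.21 with NP, a difference of -0.64 ± 0.11 (adjusted p = 0.277). Its second probe set past the filter had a difference of 0.09, so the direction for Srebf2 rests on the brighter set. Along the pathway, Hmgcs1, which makes the precursor HMG-CoA, read 11.38, 11.28 and 11.12 with BPA and 10.91, 10.83 and 10.90 with NP. Pmvk, a kinase of mevalonate phosphate, read 7.68, 7.67 and 7.66 with BPA and 6.88, 6.99 and 7.02 with NP, a difference of -0.71 ± 0.18. Mvd, the decarboxylase that follows it, read 7.15, 6.88 and 7.13 with BPA and 5.49, 6.24 and 6.52 with NP. In each of these 4 genes every NP array was lower than every BPA array, and NP replicate 1 was the lowest array for Pmvk and Mvd. Idi1 and Fdft1, which act at the isoprenoid and squalene steps, differed by -0.42 ± 0.13 and -0.41 ± 0.14. Against control day8 Srebf2 and Hmgcs1 fell with NP (-0.43 ± 0.11 and -0.70 ± 0.17, adjusted p = 0.0261 and 0.0273). With BPA they differed from it by 0.21 ± 0.11 and -0.32 ± 0.17 (adjusted p = 0.194 and 0.223). Other members did not follow by their chosen probe sets. Stard4, a sterol carrier, and Sc5d, a desaturase, differed by 0.28 (interval -0.07 to 0.63) and 0.03 (interval -0.41 to 0.47). The further probe sets of Stard4 past the filter were lower with NP, at -0.28 and -0.24, so its direction rests on the chosen set. Those of Sc5d differed by 0.0024 and -0.14.

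Promoter sequences are shown for the regulator Srebf2 and the enzyme Hmgcs1, since the list was lower as a group with NP. They come from RefSeq on GRCm38.p6 and run from 250 bases before the gene start to 50 after it, each on the plus strand. Capitals mark matches on either strand to TCACNCCAC, a form of the sterol regulatory element, and to CCAAT, the box bound by NF-Y. The Srebf2 window is chr15:82147019-82147318 and the Hmgcs1 window is chr13:119690101-119690400.
Srebf2: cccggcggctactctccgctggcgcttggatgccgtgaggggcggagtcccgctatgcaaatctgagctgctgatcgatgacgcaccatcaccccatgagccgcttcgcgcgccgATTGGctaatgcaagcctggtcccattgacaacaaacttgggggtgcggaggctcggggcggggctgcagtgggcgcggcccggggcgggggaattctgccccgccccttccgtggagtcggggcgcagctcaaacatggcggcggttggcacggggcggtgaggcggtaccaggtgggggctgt
Hmgcs1: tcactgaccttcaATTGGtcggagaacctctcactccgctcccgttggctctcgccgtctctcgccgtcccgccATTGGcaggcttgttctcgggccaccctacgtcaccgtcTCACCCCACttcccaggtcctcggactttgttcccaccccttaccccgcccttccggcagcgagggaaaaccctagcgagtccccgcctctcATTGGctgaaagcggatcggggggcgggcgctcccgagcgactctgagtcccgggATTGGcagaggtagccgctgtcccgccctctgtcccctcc
Of the 20 measured cholesterol genes 16 had an entry, with 19 promoters. The sterol motif was found in 1 of the 19, that of Hmgcs1, 137 bases before the start, and in 1.24% of the 32851 promoters of the table. Only this form was searched, so a promoter without a match may hold another form of the element. The CCAAT box was found in 16 of the 19, against 37.4% of all promoters. A match is a description of letters and not of binding.

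Genes of the endoplasmic reticulum stress and amino acid response lay higher with NP. Of 31 listed genes 30 passed the filter, and 25 had a higher mean with NP, at a median difference of 0.25. None of the 30 passed the adjusted threshold in limma (0 of 30), and 11 were higher and 0 lower at an unadjusted p under 0.05, against 3.85% and 4.53% of all genes. The arrays did not overlap for 12 genes, all higher with NP, against 7.21% of all genes. The mean over the list was 8.56, 8.55 and 8.54 on the BPA arrays, 8.75, 8.80 and 9.0 on the NP arrays and 8.59, 8.46 and 8.74 on the control day8 arrays. The NP arrays were the highest, the BPA arrays were close together, and the control arrays spanned the BPA values. Without BPA replicate 3 the count of 11 was 7.

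The higher members included stress sensors and enzymes of serine synthesis. Sesn2, which reports leucine shortage to mTORC1, read 6.59, 6.54 and 6.11 with BPA and 7.52, 7.33 and 7.06 with NP, a difference of 0.89 ± 0.15. The other Sesn2 probe set past the filter differed by -0.08, so the direction rests on the chosen set. Herpud1, which takes part in degrading misfolded proteins, read 6.86, 6.90 and 6.79 with BPA and 7.26, 7.65 and 7.54 with NP, a difference of 0.64 ± 0.11. Chac1, an enzyme that breaks down glutathione, read 6.65, 7.08 and 6.90 with BPA and 7.61, 7.75 and 7.92 with NP. Every NP array was above every BPA array for these 3 genes, with adjusted p of 0.277 for the first pair and 0.343 for Chac1. They differed in their place against control day8. Herpud1 and Sesn2 fell with BPA (-0.86 ± 0.11 and -0.57 ± 0.15, adjusted p = 0.00107 and 0.0272), whereas Chac1 differed from control by -0.19 ± 0.21 with BPA and 0.69 ± 0.21 with NP (adjusted p = 0.55 and 0.054). Mthfd2, a mitochondrial folate enzyme, read 8.29, 8.22 and 8.15 with BPA and 8.63, 8.85 and 9.0 with NP, and it rose over control day8 with NP (0.55 ± 0.14, adjusted p = 0.0279). The serine enzymes Phgdh, Psat1 and Psph differed by 0.46 ± 0.14, 0.42 ± 0.16 and 0.44 ± 0.16, and Atf4 itself by 0.35 ± 0.12. Other ATF4 targets did not separate the agents by their chosen probe sets. Asns, asparagine synthetase, read 11.22, 11.10 and 11.17 with BPA and 11.02, 11.15 and 11.23 with NP, and its interval of -0.24 to 0.18 lay within 2-fold. Asns rose over control day8 with both agents (0.79 ± 0.09 with BPA and 0.76 ± 0.09 with NP, adjusted p = 0.000671 and 0.0014). Trib3 and Ddit3 differed by -0.19 (interval -0.65 to 0.26) and 0.13 (interval -0.56 to 0.83). Their other probe sets past the filter were higher with NP, by 0.32 for Trib3 and 2.85 for Ddit3. That set of Ddit3 had a BPA mean of 1.29, under background.

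The promoters of Chac1 and Herpud1, both higher with NP, are shown from the same table and with the same window, at chr2:119350992-119351291 and chr8:94386179-94386478, both on the plus strand. Capitals mark matches on either strand to TGATGNAA, the core of the amino acid response element, and to the endoplasmic reticulum stress element II, which is ATTGG, 1 further base and CCACG.
Chac1: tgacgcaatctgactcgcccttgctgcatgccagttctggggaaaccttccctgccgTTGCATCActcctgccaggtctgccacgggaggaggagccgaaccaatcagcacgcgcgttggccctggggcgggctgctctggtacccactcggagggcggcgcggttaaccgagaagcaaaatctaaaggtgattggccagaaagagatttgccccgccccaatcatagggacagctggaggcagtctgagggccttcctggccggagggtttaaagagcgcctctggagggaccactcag
Herpud1: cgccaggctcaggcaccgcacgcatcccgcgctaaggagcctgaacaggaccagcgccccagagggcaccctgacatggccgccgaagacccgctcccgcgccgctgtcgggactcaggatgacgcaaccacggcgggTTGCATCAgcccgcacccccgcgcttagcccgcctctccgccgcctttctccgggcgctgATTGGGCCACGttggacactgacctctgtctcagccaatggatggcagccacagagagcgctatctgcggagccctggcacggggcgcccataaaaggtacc
The core matched on the minus strand in both, 193 bases before the start of Chac1 and 112 before that of Herpud1. It was found in 6 of the 30 promoters of the 27 listed genes with an entry, those of Asns, Atf3, Chac1, Herpud1, Trib3 and Vldlr, and in 3.97% of all promoters. Element II was found in 1 of the 30, that of Herpud1, 52 bases before the start, and in 0.0365% of all. The longer stress element, CCAAT and CCACG with 9 bases between, was found in 5 of the 30 and in 0.119% of all, and its first 5 letters are also the CCAAT box. The genes with the amino acid core include Asns and Trib3, whose means by the chosen probe sets did not differ between the agents beyond their error.

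**Figure D4:**
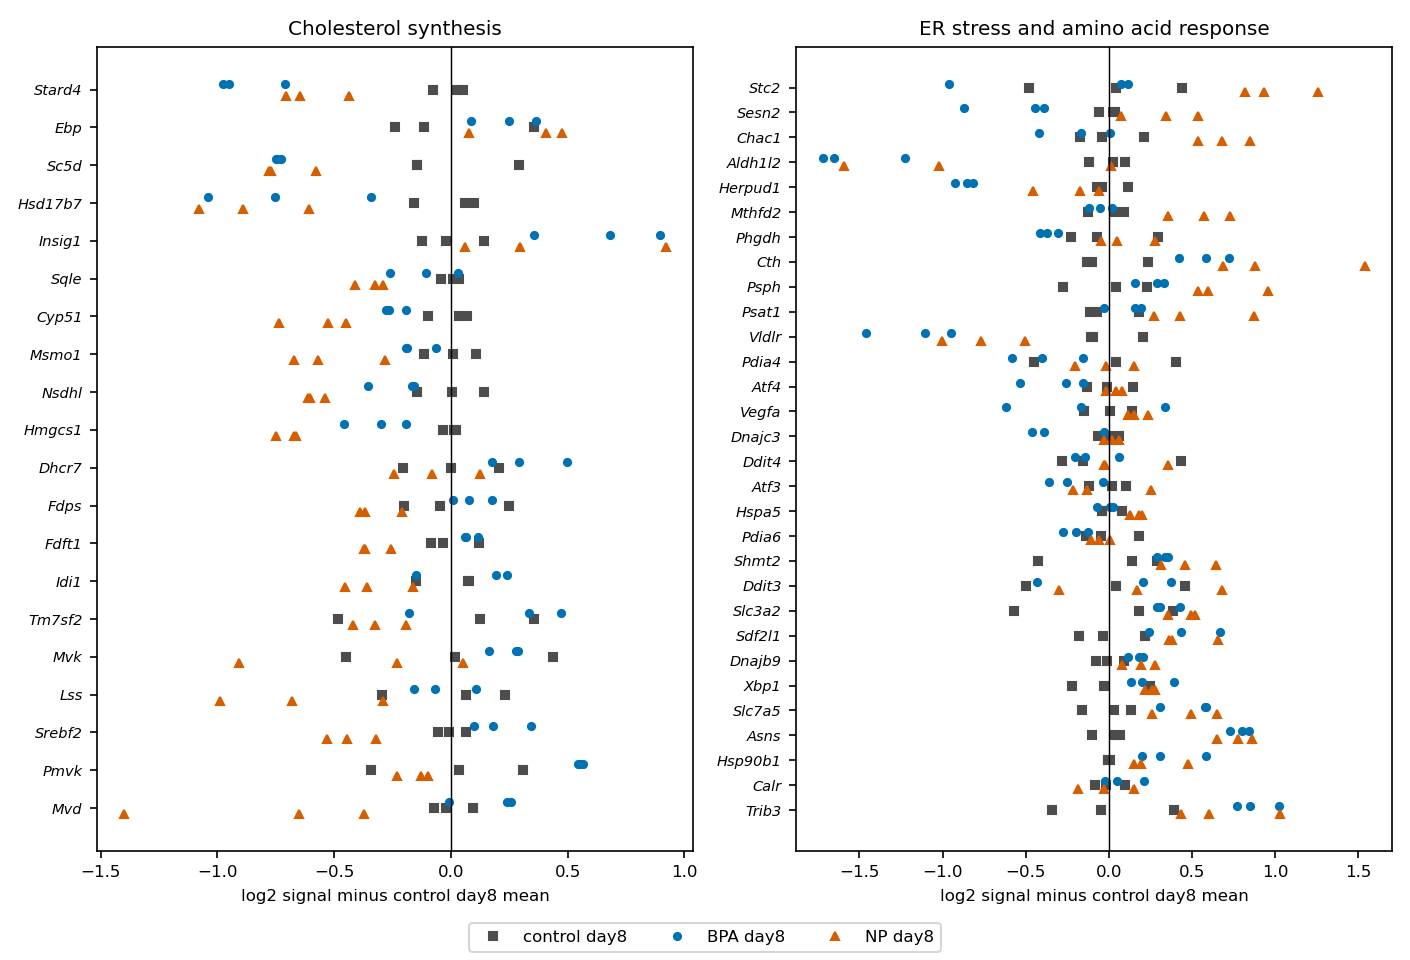
Log2 signal minus the control day8 mean (horizontal) on each day 8 array, for the measured genes of cholesterol synthesis (left) and of the endoplasmic reticulum stress and amino acid response (right), ordered by the difference NP minus BPA; squares are control day8, circles BPA and triangles NP. Most cholesterol genes have the NP arrays on the left of the BPA arrays, and the upper genes of the stress list have them on the right.

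Metallothioneins and interferon genes leaned towards BPA. The metal-binding Mt1 read 12.83, 12.92 and 12.65 with BPA and 12.05, 12.43 and 12.08 with NP, and Mt2 read 12.96, 12.96 and 13.07 with BPA and 12.31, 12.66 and 12.32 with NP. Both were higher on every BPA array, and NP differed from BPA by -0.61 ± 0.21 and -0.57 ± 0.16 (adjusted p = 0.488 and 0.398). Mt2 rose over control day8 with both agents (1.35 ± 0.16 with BPA and 0.78 ± 0.16 with NP, adjusted p = 0.000702 and 0.0134). Of the 12 measured genes of this list 3 were lower and 1 higher with NP at an unadjusted p under 0.05, against 4.53% and 3.85% of all genes. The higher gene was Slc39a8, a zinc and manganese importer, at 8.39, 8.77 and 8.26 with BPA and 9.56, 9.14 and 9.32 with NP. On the interferon and antigen processing list 27 of 30 genes passed the filter, with a median difference of -0.39 (-0.28 without NP replicate 1 and -0.20 with a pseudocount of 64). At an unadjusted p under 0.05, 7 were lower and 0 higher, against 4.53% and 3.85% of all genes, and 19 of the 27 had a lower mean with NP. Rsad2, an antiviral enzyme induced by interferon, read 6.58, 6.07 and 6.87 with BPA and 5.51, 4.93 and 4.43 with NP, a difference of -1.55 ± 0.38 (adjusted p = 0.352). It rose over control day8 with BPA (1.64 ± 0.38, adjusted p = 0.0142) and differed by 0.09 ± 0.38 with NP (adjusted p = 0.912). Ifi35 and Usp18 were also lower on every NP array, by a log2 difference of -0.76 ± 0.20 and -1.39 ± 0.48. Among the 8 with a higher mean were Irf1, a factor of the interferon response, Psmb8, an immunoproteasome subunit, and Gbp2, a guanylate-binding protein. Their arrays overlapped, at differences of 0.07 (interval -0.37 to 0.50), 0.16 (interval -0.81 to 1.13) and 0.06 (interval -0.34 to 0.46). Of the white blood cell markers, Ptprc did not pass the filter and Spi1 overlapped between the agents. Genes of the NRF2 and glutathione response counted 7 lower and 1 higher of 32 measured at an unadjusted p under 0.05, with a median of -0.18, against the same shares of all genes. Cbr3, a carbonyl reductase and NRF2 target, read 9.06, 8.80 and 8.41 with BPA and 7.68, 8.01 and 8.31 with NP, and it rose over control day8 with both agents (3.31 ± 0.28 and 2.55 ± 0.28, adjusted p = 0.000233 and 0.00099). The total of 8 for this list was 5 without BPA replicate 1, BPA replicate 2 or NP replicate 2. It was also 5 with the mean or the most variable of a gene's probe sets. Without BPA replicate 1 or BPA replicate 2, and with the most variable probe set, the split was 2 higher and 3 lower. Without NP replicate 2, and with the mean of the probe sets, it was 1 higher and 4 lower.

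Signalling and lineage genes leaned towards NP in several lists. Of 33 measured Wnt pathway genes 8 were higher and 3 lower with NP at an unadjusted p under 0.05, against 3.85% and 4.53% of all genes. Their median difference was 0.30, and it was 0.13 without NP replicate 1, and 0.16 with the mean or the most variable of a gene's probe sets and with a pseudocount of 64. Fzd4, a Wnt receptor, read 4.79, 3.97 and 4.04 with BPA and 5.66, 5.41 and 5.69 with NP, a difference of 1.32 ± 0.28 (adjusted p = 0.313). The other Fzd4 probe set past the filter differed by only 0.33. Lef1, the transcription factor at the end of the pathway, read 6.71, 6.60 and 6.59 with BPA and 7.43, 7.46 and 7.28 with NP. The lower members were the ligands Wnt7b and Wnt2 and the co-receptor inhibitor gene Kremen1, at differences of -1.26 ± 0.49, -2.25 ± 0.98 and -0.74 ± 0.30, with all 3 NP arrays of Wnt2 under background. Fzd4 and Lef1 fell against control day8 with BPA (-2.21 ± 0.28 and -0.81 ± 0.21, adjusted p = 0.00098 and 0.0238). The total of 11 Wnt genes was 4 without BPA replicate 3, and 5 without BPA replicate 1 or NP replicate 1. It was 6 without NP replicate 3 and 3 with the most variable probe set of each gene. Without NP replicate 2 the split was even, at 4 higher and 4 lower. On the primed epiblast list, genes of the pluripotent cells that follow implantation, 4 of 15 were higher and 0 lower at an unadjusted p under 0.05, against 3.85% and 4.53% of all genes. Their median was 0.35, and 0.16 without BPA replicate 3 or 0.22 with a pseudocount of 64. Fgf5, the growth factor that marks this state, read 6.72, 6.21 and 6.14 with BPA and 6.93, 6.99 and 7.78 with NP, and Foxd3 read 5.24, 5.52 and 5.80 with BPA and 6.15, 6.5 and 6.66 with NP. Both rose over control day8 with both agents (Fgf5 by 1.49 ± 0.30 with BPA and 2.36 ± 0.30 with NP, adjusted p = 0.00774 and 0.00162). The de novo methyltransferase Dnmt3b, also of the primed state, differed by 0.02 between the agents (interval -0.31 to 0.34). Of 24 measured neural genes 5 were higher and 1 lower with NP at an unadjusted p under 0.05, against the same shares. Their median of 0.34 depended on single arrays, at 0.07 without NP replicate 3, 0.15 without BPA replicate 3 and 0.50 without NP replicate 1. It was 0.19 and 0.07 with pseudocounts of 16 and 64. Pax6, a factor of neural progenitors, read 4.07, 4.59 and 3.66 with BPA and 5.41, 5.16 and 5.48 with NP, a difference of 1.24 ± 0.37 (adjusted p = 0.436). The mean of the 4 neural markers lay higher with NP and Tubb3 lower, as given above, and their part in these values was not tested.

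Further lists with more genes at an unadjusted p under 0.05 than the 8.38% of all genes included retinoid, imprinted, trophoblast and germ cell genes. The retinoid list had the highest median difference of the lists with at least 10 measured genes, 0.58. Of its 16 measured genes 3 were higher and 0 lower (18.8%). The arrays did not overlap for 7, all higher with NP, against 7.21% of all genes. Crabp2, which carries retinoic acid to its nuclear receptor, read 6.63, 6.97 and 6.31 with BPA and 7.82, 7.09 and 7.5 with NP, with Crabp1 and Rbp4 as the other two. Imprinted genes, expressed from 1 parental copy, counted 5 higher and 2 lower of 28 (25%), with a median of 0.18. Trophoblast genes counted 4 lower and 0 higher of 20 (20%), with a median of -0.48. Tead4, a factor of the trophectoderm, read 5.55, 5.56 and 5.65 with BPA and 4.80, 4.39 and 4.06 with NP. Every NP array was lower, although the mean of the 3 trophoblast markers overlapped, at 6.31 to 6.72 with BPA and 6.26 to 6.54 with NP. Germ cell genes counted 4 lower and 0 higher of 21 (19%), with a median of -0.33. The arrays did not overlap for 9, all lower with NP, against 9.74% of all genes. Stag3, a cohesin subunit of meiosis, read 8.23, 8.02 and 7.92 with BPA and 7.47, 7.73 and 7.27 with NP. Each of these 4 lists had 0 genes past the adjusted threshold in limma. Their counts moved with single arrays. The retinoid count was 1 without BPA replicate 1 or NP replicate 1 and 5 (4 higher, 1 lower) without control day0 replicate 3. The trophoblast count was 1 without BPA replicate 3 or NP replicate 3, and its median was -0.24 without the latter. The germ cell count was 1 without BPA replicate 1 or NP replicate 3, 2 without BPA replicate 2, and 7 (1 higher, 6 lower) without control day8 replicate 1. The imprinted count was 2 (2 higher, 0 lower) without BPA replicate 3 and 4 (4 higher, 0 lower) without NP replicate 3. Without NP replicate 1 it was 4 (2 higher, 2 lower), with a median of 0.08. With the most variable probe set 1 imprinted gene was higher and 2 were lower, at a median of 0.33. With a pseudocount of 64 the retinoid list had 7 higher, the trophoblast list 7 lower, and the germ cell list 8 lower and 1 higher, at medians of 0.21, -0.23 and -0.18.

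Heart muscle and mitochondrial genes had a smaller share at an unadjusted p under 0.05 than the 8.38% of all genes. The share of estrogen-responsive genes was larger. Among the 31 heart muscle genes 0 had an unadjusted p under 0.05 in either direction. Their mean was 5.10, 4.64 and 4.76 on the BPA arrays and 5.77, 4.51 and 4.93 on the NP arrays, with NP replicate 1 the highest. Of 22 measured estrogen-responsive genes 2 were higher and 1 lower (13.6%, against 8.38% of all genes), with a median of 0.04. Their arrays did not overlap for 4 genes higher and 2 lower with NP, against 7.21% and 9.74% of all genes. Of 34 oxidative phosphorylation genes the interval lay within 2-fold for 34, and of 33 genes of the mitochondrial ribosome and nucleolus for 33. Over all genes tested that share was 68.5%.

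**Figure D5:**
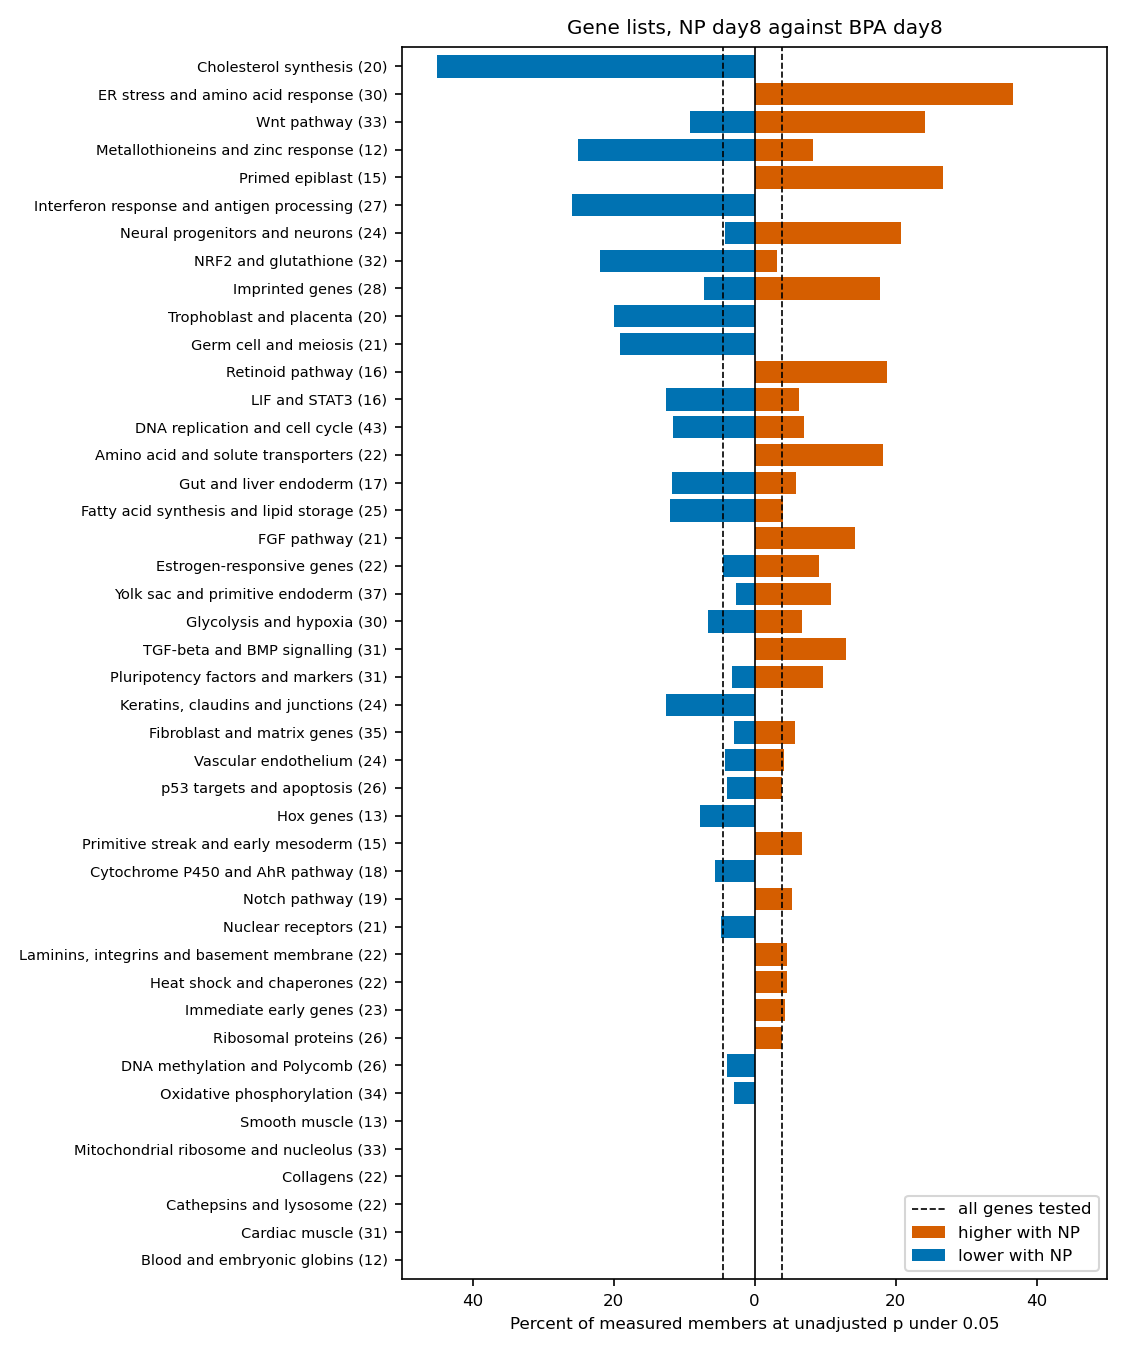
Percent of the measured genes of each list (number in brackets, lists of at least 10) with an unadjusted p under 0.05 for NP day8 against BPA day8, higher with NP to the right and lower to the left; dashed lines give the 3.85% and 4.53% of all genes tested. Cholesterol synthesis reaches farthest to the left, and the endoplasmic reticulum (ER) stress list farthest to the right.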

How the data were processed

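RNA of 12 samples in 4 groups of 3 was measured on Affymetrix arrays, with the groups taken from the sample labels. The authors deposited 1 log2 signal for each probe set and array, made with MAS5 per the submitters' processing notes. Its version and settings are not given in the sources used here. The trimmed mean signal, without the top and bottom 2%, was 100 on every array. The table held 45101 probe sets. In the platform's annotation 34958 sets named 1 gene, 932 several and 9211 were not listed, and 34754 of the first kind matched RefSeq (GRCm38.p6). No pseudocount or further scaling was used.

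Probe sets were ranked by mean and the upper 60% kept, control probe sets and those without a single gene left out, and 1 probe set per gene symbol taken. Limma 3.58.1 in R 4.3.3 fitted 4 group means over 12 arrays (residual degrees of freedom 8, prior 1.57). Every test was 2-sided, with Benjamini-Hochberg adjustment over 13067 genes and a threshold of 0.05, for 1 pair of agents. Sharing 12 arrays gives each test the spread of all groups.

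Genes were named by this rule: up to 15 called genes per direction, up to 4 called members of each list per direction, the cell type markers, and, as fewer than 10 passed, the 20 genes with the smallest p. Other list members were named after their values were seen. The 45 gene lists and the markers were chosen with earlier results of these data known, and lists are described by counts and medians. The number of arrays limits the precision. The code was tested on simulated data. Figures used Python 3.11.15 and matplotlib 3.10.9. Alternatives covered probe set choice, filter, pseudocount, background floor, scaling, variance prior, array weights, arrays fitted, replicate block, fold threshold and single arrays left out.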

Additional observations from a re-analysis of the deposited data

How the results depend on the processing

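The number of genes called stayed small under most settings. With 1 gene called (1 higher, 0 lower, 1 at least 2-fold), quantile normalization, median centring and robust empirical Bayes each also called 1. The count was 0 with 40% of probe sets kept, a pseudocount of 16, the background floor, limma-trend, only the 6 compared arrays, the 9 day 8 arrays and a test against 1.5-fold. It was 3 (3 higher, 3 at least 2-fold) with the mean of a gene's probe sets, 4 (4 higher, 4 at least 2-fold) with the most variable probe set, 4 (3 higher, 1 lower, 4 at least 2-fold) with no filter, 5 (3 higher, 2 lower, 5 at least 2-fold) with genes above background in a group, and 3 (2 higher, 1 lower, 3 at least 2-fold) with array weights. A pseudocount of 64 gave 39 (17 higher, 22 lower). Leaving out single arrays gave 0 to 3 calls (0 to 3 higher, 0 to 2 lower, 0 to 3 at least 2-fold). Testing all probe sets uncollapsed, an alternative chosen after seeing the data, called 1, a set of Psmf1 (adjusted p = 0.0431). The cause of these differences was not tested.

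With the replicate number as a block the count was 0, and the smallest adjusted p was 0.102. Same-numbered BPA and NP arrays deviated from their group means with correlations of 0.02, -0.01 and 0.05, so the numbers were not taken to pair the arrays.

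Signs turned mostly where the difference was near 0 or under background. With the mean of a gene's probe sets the difference was -0.30 for Hbb-bh1, -0.0765 for Stard4, -0.0366 for Sc5d, 0.00285 for Asns, 0.0648 for Trib3, -0.0576 for Gbp2 and -0.0122 for Pou3f1. With the most variable probe set it was 0.0898 for Srebf2, -0.00992 for Eomes, 0.38 for Lss, -0.00500 for Hspa5, 0.59 for Xaf1, -0.18 for Gbp2 and -0.22 for Pou3f1. Pseudocounts of 16 and 64 and the background floor gave -0.00706, -0.0188 and -0.28 for Thy1, 0.0865, 0.0410 and 0.27 for S100a4, -0.24, -0.12 and -0.46 for Hbb-bh1. Centring gave 0.0233 for Cdx2 and 0.00259 for Asns. Array weights gave -0.000461 for Postn, 0.49 for S100a4, -0.16 for Tnnt2 and -0.44 for Hbb-bh1.

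Over single arrays left out, the sign also turned within these ranges: Pou5f1 -0.33 to 0.18, Sox2 -0.17 to 0.0738, Col3a1 -0.57 to 0.0475, Thy1 -0.80 to 1.35, Postn -0.38 to 0.27, S100a4 -0.78 to 0.92, Tnnt2 -0.77 to 1.40, Myl7 -0.21 to 1.83, Actc1 -0.40 to 1.24, Nkx2-5 -0.13 to 0.58, Kdr -0.20 to 0.81, Cdh5 -0.52 to 0.0404, Hbb-bh1 -2.25 to 1.96, Cdx2 -0.48 to 0.41, Spi1 -0.42 to 0.95, Sc5d -0.0331 to 0.0676, Asns -0.0780 to 0.0294, Ddit3 -0.11 to 0.38, Irf1 -0.0323 to 0.20, Psmb8 -0.0483 to 0.29, Gbp2 -0.0128 to 0.14, Gpx4 -0.0183 to 0.11, Dnmt3b -0.0885 to 0.13, Pou3f1 -0.0159 to 0.41, and the pluripotency list's median -0.15 to 0.00709. A test against 1.5-fold left 2 stress, 2 interferon and 1 Wnt genes at an unadjusted p under 0.05, and 0 of the cholesterol, metallothionein, NRF2, neural, pluripotency, primed epiblast, yolk sac, retinoid, imprinted, trophoblast and germ cell lists. Signals near background limit the low genes most: the median half-width of the interval was 0.45 over all genes and 0.39 above background on all 6 arrays.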
